A study of Mus musculus with 4 samples.

Results

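Genes of the circadian clock are described here across cell classes of the mouse hippocampus and across social defeat stress. They were taken by name from the 56748 genes of the count tables: Per2, Per3, Cry1, Cry2, Clock, Npas2, Nr1d1, Nr1d2, Rora and Dbp, and all 10 members were found. Single nuclei came from 8 pools, each of the hippocampi of 3 male mice. In the diet experiment, C57BL/6 mice of 5 to 7 weeks received vehicle diet (Con-Veh, Stress-Veh) or PLX5622, a CSF1R antagonist that depletes microglia (Con-PLX, Stress-PLX), from 7 days before the stress. In the genotype experiment, mice carried intact Il1r1 (Con-IL-1R1+/+, Stress-IL-1R1+/+) or had it deleted by a Vglut2-driven Cre, and so in glutamatergic neurons (Con-nIL-1R1-/-, Stress-nIL-1R1-/-), with ages not given in the sources used here. Stress was repeated social defeat by an aggressive CD-1 male, 2 h on each of 6 nights from 16:00 to 18:00. Nuclei were taken 14 h after the last defeat. Controls stayed undisturbed in another room. Each control pool and the stress pool of the same diet or genotype form a pair, which gave 4 pairs, and each of the 8 groups is a single pool.

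The clock is a loop of transcription. CLOCK or its relative NPAS2 pairs with BMAL1 and binds E-box sequences at the genes of its own repressors, the PER and CRY proteins, which then shut the pair down. The nuclear receptors REV-ERBα and REV-ERBβ (Nr1d1, Nr1d2) repress Bmal1 and RORα (Rora) activates it, while DBP, an output factor, binds D-box sequences and is itself under E-box control. Per1 and Per2 also respond to glucocorticoids and to neuronal activity, and the hippocampus keeps a rhythm of its own that follows signals from elsewhere. All pools were taken at 1 time after the last defeat, so a shift in phase and a change in level cannot be told apart. Whether control and stress mice were taken at the same clock hour was not stated. Controls were kept in another room, so stress and room cannot be told apart either.

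After the mitochondrial filter 56834 of 57350 nuclei were kept, with no cell barcode shared between pools. Depth differed widely, from 7534594 UMIs in Stress-PLX to 58081835 in Con-nIL-1R1-/-, and the median nucleus held 598 UMIs in Con-PLX and 5012 in Con-nIL-1R1-/-. Markers named 21 of 29 clusters and left 15022 nuclei unnamed, between 12.9% and 39% of a pool. The DG-like class held 10541 nuclei, the CA1-like class 8281, the CA2/3-like class 6080 and inhibitory (INH-like) neurons 6284. In DG-like nuclei, Il1r1 stood at 11.5 and 9.02 CPM (the gene's UMIs as a share of all UMIs of the class, scaled alike in every class) in the nIL-1R1-/- pools and between 29.7 and 91.6 CPM in the other 6, which goes with the labels.

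Levels by cell class come first. They were averaged over the pools with 20 nuclei or more, and are compared between classes for 1 gene at a time, since nuclear counts also depend on a gene's length. Of the repressors, Per2 was highest in CA1-like nuclei at 83.6 ± 32.3 CPM (SD, n = 8), followed by oligodendrocyte precursor-like nuclei at 68.4 ± 21.7, and lowest in oligodendrocyte-like nuclei at 16.1 ± 14.4. Per3 was highest in DG-like nuclei at 51.6 ± 19.9 CPM and again lowest in oligodendrocyte-like nuclei at 11.7 ± 6.21. The oligodendrocyte-like means rest on 0 to 12 UMIs a pool for Per2 and on 1 to 8 for Per3. Cry1 ran from 4.28 ± 1.76 CPM in CA2/3-like to 13 ± 8.27 in astrocyte-like nuclei. Cry2 ran from 40.3 ± 27.8 in endothelial-like to 92.7 ± 15.9 CPM in astrocyte-like nuclei.

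The activators ran in different orders. Clock was highest in oligodendrocyte-like nuclei at 176 ± 28.4 CPM and lowest in astrocyte-like nuclei at 87 ± 29.6. Npas2 was highest in astrocyte-like nuclei at 267 ± 64.7 CPM, and stood at 219 ± 29.7 in CA1-like nuclei and only 83.8 ± 4.45 in DG-like nuclei. It was lowest in oligodendrocyte-like nuclei at 41.2 ± 26.6, on 0 to 42 UMIs a pool. By these means, the class with the most Clock held the least Npas2, and the reverse held in astrocyte-like nuclei. The orders were not opposite throughout, since microglia-like nuclei ranked 4 for both genes. The astrocyte-like Clock mean includes 28.7 CPM on 4 UMIs in Con-PLX.

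Among the nuclear receptors, Rora had similar means in the Slc17a6 excitatory-like class, named for the vesicular glutamate transporter VGLUT2 (3416 ± 2144 CPM), and in astrocyte-like nuclei (3128 ± 426 CPM). The first was above the second in 4 of 8 pools, and its mean rests on 8471 CPM in the 31 nuclei of Stress-nIL-1R1-/-, where its other pools ran from 1843 to 3915 CPM. The marker list of the Slc17a6 excitatory-like class also held Tcf7l2, Lhx9, Shox2, Ebf1 and Ntng1. This class was unevenly sampled, from 22 nuclei in Con-nIL-1R1-/- to 1573 in Con-IL-1R1+/+. Whether its nuclei lie within the hippocampus was not tested. Astrocyte-like nuclei stood above oligodendrocyte precursor-like nuclei (1905 ± 281 CPM) in 8 of 8 pools, and oligodendrocyte-like nuclei held 373 ± 89.4 CPM. Nr1d2 had its highest mean in Cajal-Retzius-like nuclei at 118 ± 56.3 CPM and its lowest in CA2/3-like nuclei at 27.8 ± 3.1. The Cajal-Retzius-like mean rests on 2 to 14 UMIs a pool. It stood above the next class, endothelial-like nuclei (86.7 CPM), in 5 of 7 pools. For Nr1d1 the endothelial-like mean of 57.7 CPM had an SD of 83 and so says little, and astrocyte-like nuclei held 31.8 ± 13.7 CPM. Dbp ran from 2.71 ± 4 CPM in oligodendrocyte-like to 15.4 ± 18.5 in Cajal-Retzius-like nuclei, where the second stood above the first in only 4 of 7 pools.

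Of 110 pairs of neighbouring classes over the 10 genes, none passed an exact sign-flip permutation test over pools (two-sided) after Benjamini-Hochberg adjustment, and 10 had an unadjusted p under 0.05. The order itself was set by the means of these pools, so these p-values are not independent of it. The smallest p that 8 pools allow is 0.00781. It was reached between neighbours only by Rora. DG-like nuclei (1028 CPM), for example, stood above CA2/3-like nuclei (794 CPM) in 8 of 8 pools (exact permutation p = 0.00781, adjusted p = 0.215). Neighbours are the classes closest in level and this floor limits the adjusted p, so the test does not show that classes are alike. The highest class stood above the lowest in 8 of 8 pools for Per2, Per3, Cry1, Cry2, Clock, Npas2 and Rora. It did so in 7 of 8 for Nr1d1 and in 7 of 7 for Nr1d2. These classes were picked by the same means, and their difference was not tested.

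**Figure D1:**
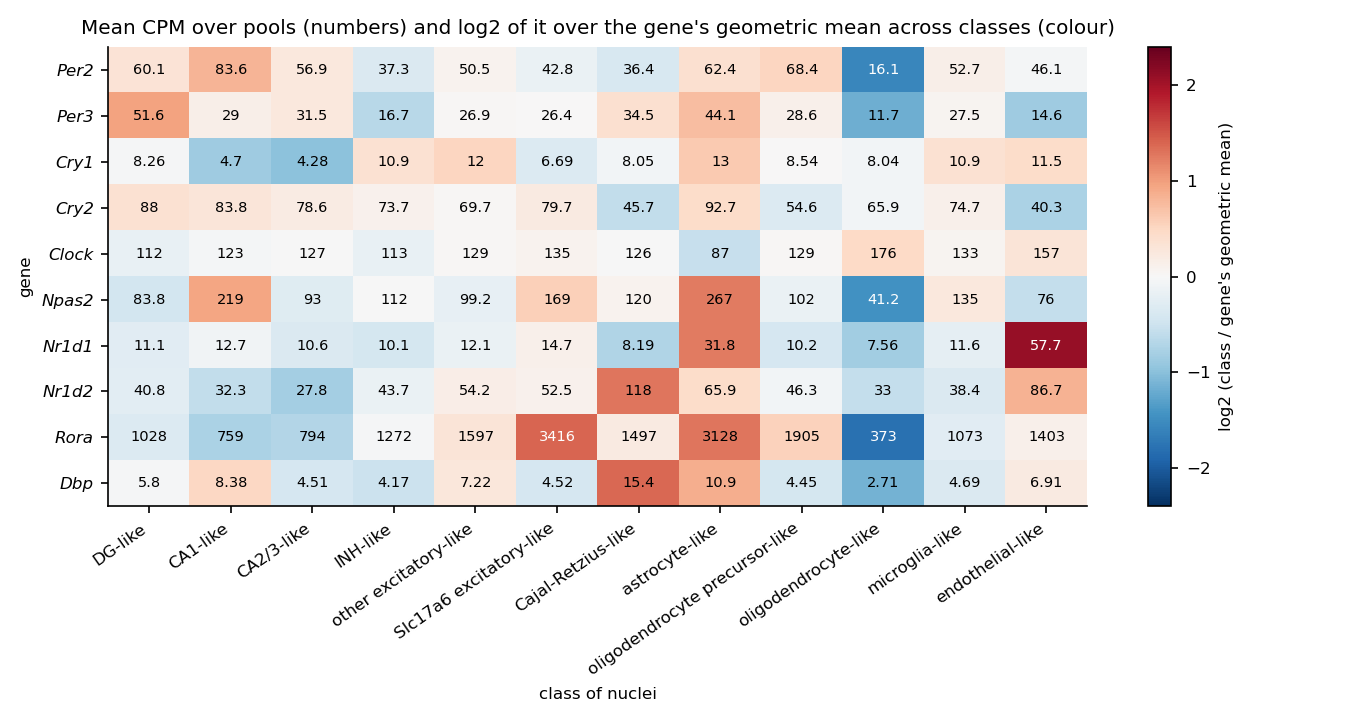
Mean level of each clock gene (rows) in each class of nuclei (columns), as the mean CPM over pools (numbers) and as log2 of that mean over the gene's geometric mean across classes (colour). Oligodendrocyte-like nuclei are low for Per2 (16.1), Npas2 (41.2) and Rora (373) and high for Clock (176).

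Stress was tested next, first over all nuclei of a pool, which does not rest on cluster names. The test was edgeR's quasi-likelihood test on summed UMIs with the pair as a term, adjusted over all 18576 genes tested, and a gene was called at an adjusted p under 0.05. In such sums, fewer nuclei of a type and less RNA per nucleus cannot be told apart. None of the 10 members was called, against 0.323% of all genes. Per2, Per3, Nr1d1 and Dbp had an unadjusted p under 0.05, all with positive estimates, where 9.25% of all genes did so in that direction. Per2, Per3, Cry2, Nr1d1 and Dbp were higher in stress in each of the 4 pairs, as were 13.7% of all genes. The median estimate of the members was 0.20 on the log2 scale and that of all genes -0.00.

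Per2 stood at 58, 39.3, 41.2 and 45.4 CPM in Con-Veh, Con-PLX, Con-IL-1R1+/+ and Con-nIL-1R1-/- and at 103, 74.5, 54.8 and 54.1 CPM in their stress partners. The groups overlapped only through Con-Veh, and both diet stress pools stood above every control. The estimate was 0.56 ± 0.12 (log2, SE), or 1.47-fold (edgeR adjusted p = 0.0828). Under DESeq2 the adjusted p of Per2 was 0.00815. Over 11 alternative fits (edgeR or DESeq2) Per2 was called in 2, with an adjusted p from 0.00184 to 0.477. The number of all genes called ran from 0 to 872 over these fits. Each of the 4 sublibraries, which sequenced separate nuclei of the same pools, gave a higher Per2 level in the stress pool of every pair.

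Per3 stood at 28.2, 18.4, 23.5 and 21.5 CPM in the same order of controls and at 47.5, 56, 24.1 and 22.5 CPM under stress. The stress pools stood apart in the diet pairs and close to their controls in the genotype pairs, with log2 differences of 0.75 and 1.60 in the vehicle and PLX5622 pairs and of 0.04 and 0.06 in the IL-1R1+/+ and nIL-1R1-/- pairs. The counting intervals (95%, counting error only) of the latter ran from -0.11 to 0.18 and from -0.08 to 0.21. A term for the difference between experiments, added after the values were seen, gave 0.97 ± 0.24 on the log2 scale for Per3 (edgeR unadjusted p = 0.00238, adjusted p = 0.34 over all genes, of which 0% were called), so the difference was not called. The median nucleus was also shallower in the diet pools (598 to 2563 UMIs) than in the genotype pools (2580 to 5012 UMIs), and Malat1, a nuclear RNA, went from 1.97% to 2.62% and from 2.74% to 2.92% of UMIs in the diet pairs and from 2.19% to 2.07% and from 2.22% to 2.1% in the genotype pairs. The median mitochondrial share was 0.229% in Stress-PLX and 0.0915% to 0.124% in the other pools. The part of depth and of these shares in the Per3 values was not tested.

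Nr1d1 stood at 12.8, 7.84, 8.82 and 10.7 CPM in the controls and at 16.6, 18.3, 13.3 and 14 CPM under stress. Its groups did not overlap, every stress pool lying above every control pool, as held for 2.54% of all genes tested. The estimate was 0.57 ± 0.14 (log2, SE; edgeR adjusted p = 0.132), and the stress pool was higher in each of the 4 sublibraries in every pair. For Per3 this held in only 2 of 4 sublibraries in both genotype pairs, and for Dbp and Cry2 in 3 of 4 in the nIL-1R1-/- pair. Sublibraries are splits of the same pools and do not replicate the stress. The endothelial marker sum in all nuclei, with 7 of 7 markers detected, also separated the groups, at 37.8 to 97.1 CPM in controls and 98.1 to 196 CPM under stress. The Slc17a6 excitatory sum separated them the other way, at 383 to 584 CPM in controls and 269 to 382 CPM under stress. The astrocyte, microglia and mural sums were higher under stress in every pair, and the CA1 and oligodendrocyte precursor sums lower, with overlap of the groups. Over the DG-, CA1-, CA2/3- and INH-like classes alone, the Nr1d1 estimate was 0.52 (adjusted p = 0.252, chosen after seeing the data). Dbp rested on 33 to 272 UMIs a pool. It stood at 6.49, 4.31, 4.21 and 4.68 CPM in the controls and at 9.77, 11.1, 6.36 and 4.93 CPM under stress, with an estimate of 0.56 ± 0.18 (adjusted p = 0.204).

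The remaining members had estimates nearer to 0. Clock, the activator that is transcribed through the day with little rhythm, stood between 112 and 135 CPM in all 8 pools, and its estimate was -0.06 ± 0.09. Cry2 had an estimate of 0.13 ± 0.10, Cry1 of -0.02 ± 0.15, Nr1d2 of 0.01 ± 0.11 and Rora of -0.04 ± 0.13. The make-up of the IL-1R1+/+ pair differed, with 1573 Slc17a6 excitatory-like nuclei in the control pool and 80 in the stress pool. In the control pool they held 27142 of 58767 Rora UMIs and 638 of 1852 Nr1d2 UMIs. In the stress pool they held 671 of 37425 and 19 of 1233. Npas2 had an estimate of 0.28 ± 0.14 (adjusted p = 0.392), with the larger pair differences in the genotype experiment, where it stood at 126 and 169 CPM in the controls and at 213 and 225 CPM under stress. Over the DG-, CA1-, CA2/3- and INH-like classes alone its estimate was -0.10. The share of unnamed nuclei in the genotype pairs went from 12.9% and 20.6% in controls to 28.8% and 34.2% under stress. The part of these differences in make-up in the Rora, Nr1d2 and Npas2 values was not tested further.

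**Figure D2:**
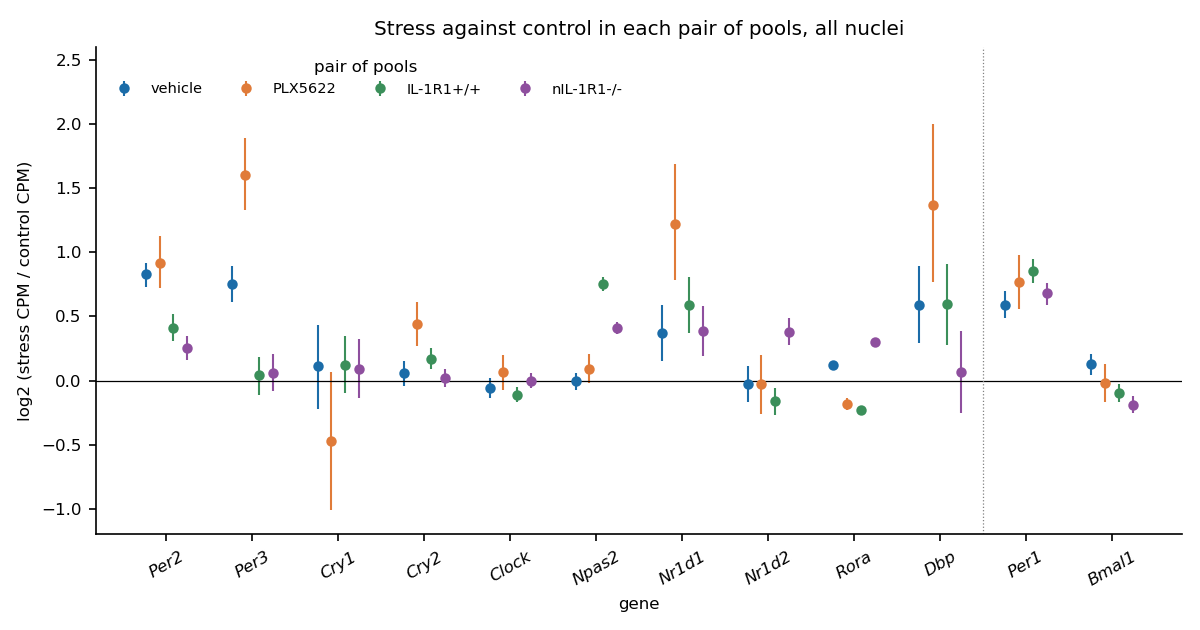
Log2 of the stress over the control level (CPM, all nuclei) for each clock gene and each pair of pools, with Per1 and Bmal1 at the right. Points are single pairs and bars are 95% intervals for counting error only. Per2, Per3, Cry2, Nr1d1, Dbp and Per1 lie above 0 in all 4 pairs, but the bars reach 0 for Per3 in both genotype pairs (0.04 and 0.06), for Dbp in the nIL-1R1-/- pair (0.07) and for Cry2 in the vehicle and nIL-1R1-/- pairs.

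Short stretches before the start sites of Per2, Per3 and Nr1d1, which had the lowest unadjusted p or a call among the members, are shown for the clock motifs in them, read from GRCm39, the build of the files, at the canonical transcript starts of GENCODE vM39. Capitals mark a D-box (TTATGTAA or TTACGTAA, the site bound by DBP) in Per2 and Per3 and an E′-box (CACGTT, a variant of the E-box, here on the other strand) in Nr1d1.
Per2, chr1:91387144-91387191, minus strand: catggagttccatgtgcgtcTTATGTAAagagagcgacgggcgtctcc
Per3, chr4:151129253-151129347, minus strand: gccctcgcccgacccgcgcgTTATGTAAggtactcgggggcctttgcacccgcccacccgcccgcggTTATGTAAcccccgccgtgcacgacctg
Nr1d1, chr11:98666206-98666251, minus strand: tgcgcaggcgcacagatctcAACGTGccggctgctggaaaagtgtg

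These stretches lie upstream of the canonical start, and the last 2 also lie in exons of long noncoding genes (Gm69444 and Gm31862). Within 250 bases before the start, searched on both strands, a D-box was found in 2 of the 10 members, Per2 and Per3, and in 0.939% of 21617 protein-coding genes. Per3 held 2 of them, whose first bases lay 187 and 140 bases before the start. An E′-box was found in Cry1, Cry2 and Nr1d1 and in 4.17% of genes, an E-box (CACGTG) in Cry1 alone and in 6.3% of genes, and the core of the ROR and REV-ERB element (AGGTCA) in Nr1d2 and Dbp and in 13.1% of genes. These matches describe the letters of the sequence and were not measured as binding. Bases past the canonical start or farther upstream were not searched, so no match here does not mean that a gene lacks the motif.

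Within classes, 83 tests of a member in 1 of 12 classes were made, and 1 was called. Per3 rose in CA2/3-like nuclei, the pyramidal cells that the dentate gyrus feeds. It stood at 26.7, 20, 18 and 20.6 CPM in Con-Veh, Con-PLX, Con-IL-1R1+/+ and Con-nIL-1R1-/- and at 52.9, 59.4, 26.2 and 28.5 CPM in their stress partners, on 23 to 324 UMIs a pool. It was higher in stress in each of the 4 pairs, as were 13.8% of genes, and the diet stress pools stood well above every other pool, while Stress-IL-1R1+/+ lay just below Con-Veh. The estimate was 0.79 ± 0.16 (log2, SE), or 1.73-fold (edgeR adjusted p = 0.039, where 0.658% of 11861 genes were called). Over 11 alternatives the estimate stayed between 0.67 and 0.93, but Per3 was called in only 5. The call was lost without the vehicle pair (0.70, adjusted p = 0.366), the IL-1R1+/+ pair (0.88, adjusted p = 0.0628) or the nIL-1R1-/- pair (0.93, adjusted p = 0.0647). It was also lost without the pair as a term (adjusted p = 0.445) and with a coarser clustering. The call was lost too in the largest CA2/3-like cluster alone (0.73, adjusted p = 0.106, chosen after seeing the data). The share of CA2/3-like nuclei in that cluster was higher under stress in every pair, from 62.4% to 86.7%, 86.5% to 94.3%, 69% to 72.1% and 53.4% to 72%. The summed markers of oligodendrocytes, astrocytes, microglia and endothelium, all detected, overlapped between control and stress in CA2/3-like nuclei. Astrocyte markers stood at 153 to 186 CPM in controls and 141 to 226 CPM under stress. The oligodendrocyte sum was lower under stress in every pair, as were the DG, CA1, INH, Slc17a6 excitatory, mural and ependymal sums. CA1 markers stood at 312 to 452 CPM in controls and 182 to 317 CPM under stress. The CA2/3 markers themselves were higher under stress in 3 pairs. The part of these shifts in the Per3 values was not tested.

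In CA1-like nuclei no member was called in the main edgeR fit, where 0.00971% of genes were, or by DESeq2. By edgeR, 3 members had an unadjusted p under 0.05 with a positive estimate, as did 9.74% of genes. Per3 had the largest member estimate there, 0.93 ± 0.22 (adjusted p = 0.0935). It stood at 20.9, 15.6, 16.2 and 16.5 CPM in the controls and at 38, 76.4, 23.8 and 24.4 CPM under stress, so that every stress pool lay above every control pool, as held for 2.28% of genes. Per2 went from 87.1, 50.7, 57.3 and 63.2 CPM to 142, 122, 69.2 and 77.5 CPM, with an estimate of 0.56 ± 0.16 (adjusted p = 0.117), and Nr1d1 had an estimate of 0.66 ± 0.24 (adjusted p = 0.193). Deep and shallow clusters made up this class in different shares. The deep one held 71.4% of Con-Veh and 23.5% of Stress-Veh, 19.1% of Con-PLX and 6.96% of Stress-PLX, but over 83% of each genotype pool. Over 12 alternatives, with the fit of that cluster alone among them, the Per3 estimate ran from 0.64 to 1.17 and was called in 1. The part of these shares in the values was not tested further.

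In DG-like nuclei, the granule cells of the dentate gyrus, no member was called in the main edgeR fit, where 0.0549% of genes were, or by DESeq2. Of the members, 3 had an unadjusted p under 0.05 with a positive estimate and 1 with a negative one, as did 7.14% and 5.26% of genes. Per2 stood at 63, 42.1, 39.4 and 47 CPM in the controls and at 81.3, 81.9, 62.2 and 63.9 CPM under stress. Each stress pool stood above its control, with an estimate of 0.54 ± 0.12 (adjusted p = 0.105), and the difference between experiments was -0.05 ± 0.24 (log2, SE; adjusted p = 0.971, where 0.017% of genes were called). The largest DG-like cluster, a deep one, held 70.5% of Con-Veh and 36.5% of Stress-Veh, 17.6% of Con-PLX and 9.93% of Stress-PLX, and 73.6% to 87.7% of the genotype pools. In that cluster alone the Per2 estimate was 0.46 (adjusted p = 0.109, chosen after seeing the data). Over 12 alternatives the Per2 estimate ran from 0.36 to 0.62 and was called in 1. Nr1d1 had an estimate of 0.76 ± 0.25 (adjusted p = 0.224) on as few as 4 UMIs in Con-PLX. Cry1 was lower in stress in every pair, as were 9.87% of genes, at 9.64, 8.66, 10.9 and 10.6 CPM in controls and 4.32, 5.79, 8.61 and 7.51 CPM under stress, with no overlap of the groups, as held for 2.13% of genes in that direction. Its estimate was -0.61 ± 0.25 (adjusted p = 0.323), on 7 UMIs in each PLX5622 pool.

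INH-like nuclei gave no member an unadjusted p under 0.05, with estimates between -0.46 (Dbp) and 0.24 (Nr1d1), where 0.0896% of genes were called and 10.1% had an unadjusted p under 0.05. Per2 went from 37 to 60.9 and from 27.5 to 59.2 CPM in the vehicle and PLX5622 pairs and from 29.6 to 28.4 and from 33.2 to 22.6 CPM in the IL-1R1+/+ and nIL-1R1-/- pairs. The difference between experiments was 1.12 on the log2 scale (adjusted p = 0.315, where 0% of genes were called).

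**Figure D3:**
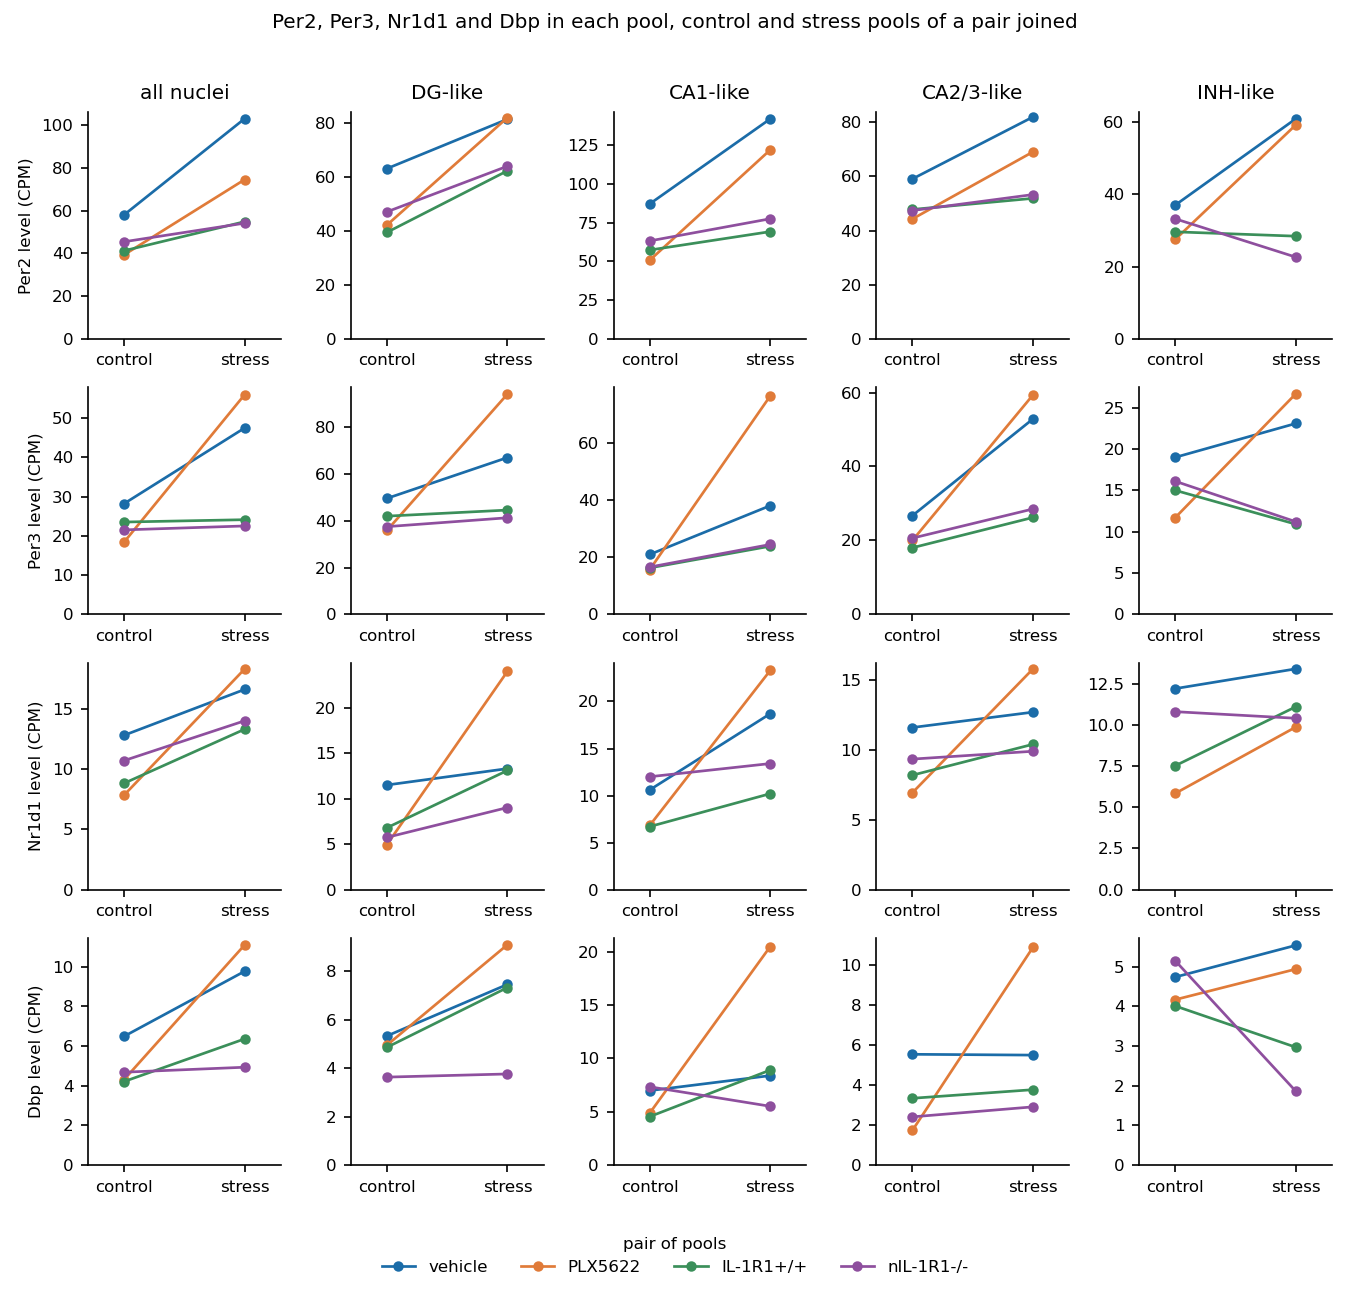
Level (CPM) of Per2, Per3, Nr1d1 and Dbp (rows) in all nuclei and in 4 neuronal classes (columns), with the control and stress pools of each pair joined by a line and 1 point per pool. Per3 in CA2/3-like nuclei is higher under stress in all 4 pairs, up to 52.9 and 59.4 in the diet pairs, and Per2 in INH-like nuclei is higher under stress in the diet pairs alone.

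In glia, endothelium and the remaining neuronal classes no member was called. The share of genes called was 0.246% in microglia-like, 0.0583% in oligodendrocyte-like, 0.124% in oligodendrocyte precursor-like, 0.433% in endothelial-like, 1.33% in Cajal-Retzius-like, 0% in Slc17a6 excitatory-like and 0.0311% in other excitatory-like nuclei. Few members could be tested in the small classes, with 1 in Cajal-Retzius-like and 2 in endothelial-like nuclei. Npas2 in astrocyte-like nuclei stood at 244, 222, 245 and 169 CPM in the controls and at 358, 358, 265 and 274 CPM under stress, every stress pool above every control pool, with an estimate of 0.47 (edgeR adjusted p = 0.243, where 0.86% of genes were called and 2.77% did not overlap in that direction). Rora there had an estimate of 0.25 and was higher in stress in each of the 4 pairs, as were 9.92% of genes. Microglia-like nuclei, tested in 3 pairs because the PLX5622 pools held 8 and 10 of them, gave Per2 an estimate of 0.32 and Nr1d2 one of -0.60, neither with an unadjusted p under 0.05, where 10.5% of genes had one. The stress effect did not differ by a called amount between named non-neuronal and neuronal nuclei for any of the 10 members, where 0.519% of genes were called. For Per3 the difference was -0.47 (adjusted p = 0.356).

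Other genes of the clock were taken from a list of 17. In all nuclei 17 were tested and 1 was called, where 0.323% of all genes were. This was Per1, a PER gene that responds to glucocorticoids. Per1 rose from 49.8, 39.5, 40.4 and 46.7 CPM in the controls to 75.2, 67.3, 73 and 74.7 CPM under stress. Every stress pool lay above every control pool, as held for 2.54% of genes, with an estimate of 0.69 ± 0.10, or 1.61-fold (adjusted p = 0.0264), and a difference between experiments of -0.20 (adjusted p = 0.745). The call was lost without the vehicle pair (adjusted p = 0.206), the IL-1R1+/+ pair (0.0895) or the nIL-1R1-/- pair (0.057), without the pair as a term (0.132), and over the DG-, CA1-, CA2/3- and INH-like classes alone (0.54, adjusted p = 0.206, chosen after seeing the data). In non-neuronal nuclei Per1 was called too, at 0.67 ± 0.15 (adjusted p = 0.0272, where 2.21% of genes were called). That call was lost without the vehicle pair (adjusted p = 0.203), the PLX5622 pair (0.0865) or the IL-1R1+/+ pair (0.0793), without the pair as a term (0.112) and under DESeq2 (0.0636), in fits added after seeing the data, with estimates between 0.63 and 0.76. In CA1-like nuclei the Per1 estimate was 0.84 ± 0.14 (adjusted p = 0.0577). The endothelial and Slc17a6 excitatory marker sums of all nuclei, given above with Nr1d1, separated the groups as well. The part of such shifts in the Per1 values was not tested there. Bmal1, the partner of CLOCK, had an estimate of -0.08 ± 0.10 in all nuclei. In DG-like nuclei Bmal1 was lower in stress in every pair, as were 9.87% of genes, from 85.9, 81.7, 87 and 83.6 CPM to 80.1, 77.8, 68.2 and 56 CPM (-0.31 ± 0.12, adjusted p = 0.299). Rorb, a relative of Rora, rose in microglia-like nuclei from 5.57, 18.7 and 15.1 CPM to 37.1, 68.2 and 35.8 CPM in the vehicle, IL-1R1+/+ and nIL-1R1-/- pairs. The estimate was 1.71 ± 0.33 (edgeR adjusted p = 0.0427, where 0.246% of genes were called), on 6 to 68 UMIs a pool. In astrocyte-like nuclei Rorb stood higher, at 328 to 750 CPM, and carry-over of their RNA was not tested. The Rorb call was lost without the vehicle pair (1.50, adjusted p = 0.413), without the nIL-1R1-/- pair (2.12, adjusted p = 0.0831), without doublets (1.51, adjusted p = 0.325), without the pair as a term (1.81, adjusted p = 0.0776) and under DESeq2 (1.79, adjusted p = 0.116), which makes 5 of 10 alternatives.

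**Figure D4:**
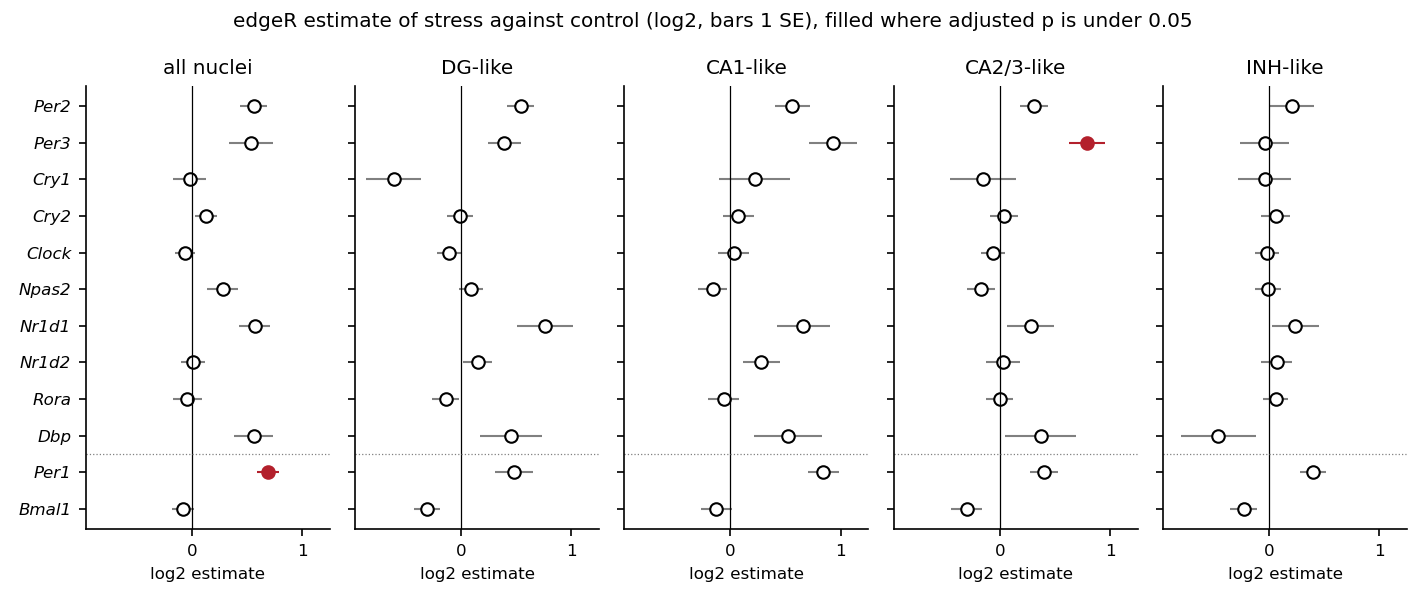
Estimate of stress against control (log2, edgeR) for the 10 clock genes and, under the dotted line, Per1 and Bmal1, in all nuclei and in 4 neuronal classes. Bars are 1 SE and filled points have an adjusted p under 0.05, which holds for Per3 in CA2/3-like nuclei (0.79) and for Per1 in all nuclei (0.69).

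The genes whose pattern was most like that of Dbp were found by Pearson correlation of pair-centred log2 levels over the 8 pools in all nuclei, among 5985 genes at 20 CPM or more. They were Dbn1, Ppp2r5c, Ccsap, Leng8 and Fubp3, with r from 0.9985 to 0.9998. With the pair means taken out, 4 differences carry the pattern, and 12.9% of the genes had r above 0.9, so such values are common here. Among members, r with Dbp was 0.94 for Per2, 0.94 for Per3, 0.97 for Cry2, -0.03 for Clock, 0.42 for Npas2, -0.19 for Nr1d2 and -0.42 for Rora. Cry1 and Nr1d1 were under 20 CPM and were not compared.

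Several members share exonic sequence with a gene on the opposite strand, among them Per3 (chromosome 4, 151081373 to 151129140, GRCm39) with Uts2, Nr1d1 (chromosome 11, 98658752 to 98666188) with Thra, and Dbp (chromosome 7, 45354512 to 45359627) with Sphk2. Whether the counting used strand is not given in the sources used here, and reads of such partners cannot then be told apart. Per2 (chromosome 1, 91343700 to 91387069) shares no exonic sequence with another gene.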

How the data were processed

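The authors deposited, per the labels, UMI counts per gene and nucleus for 8 pools. They were measured in 4 split-pool sublibraries of hippocampal nuclei and aligned to mm39 with the Parse Biosciences pipeline. The labels also name filtering with Seurat 4.1.1. The deposited counts still held nuclei above the 20% mitochondrial limit that the paper states, so that filter had not been applied to them. From these counts, nuclei with up to 20% mitochondrial UMIs were kept, clustered with scanpy 1.11.5 (2000 variable genes, clock and mitochondrial genes left out, 30 components, Leiden resolution 1.0) and named from marker lists. Doublets were kept. UMIs were summed per class and pool and tested with edgeR 4.0.16 (TMM, filterByExpr, pair as a term) in R 4.3.3 over all genes, with Benjamini-Hochberg adjustment. The SE is the estimate over the root of F. Scripts were tested on simulated data. Members and lists were chosen with earlier results of these data known. All 10 members, called list genes, Per1, Bmal1 and the 5 genes nearest to Dbp are named. Alternatives were DESeq2 1.42.0, other size factors, filters, depths, clusterings and left-out pairs. The replicate number pairs pools of the same diet or genotype, whose deviations correlated (r from 0.23 to 0.37 in all nuclei), though less in INH-like nuclei (from 0.08). P-values for stress rest on the spread of stress differences between pairs of pools of 3 mice. With a single pool per group, that spread also holds any difference of the stress effect between diets or genotypes. Intervals cover counting error only.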

Additional observations from a re-analysis of the deposited data

Results flagged for a closer look

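In 100 groups of 4 pools (10 genes, all nuclei and 4 classes, control or stress), 2 held a pool far from the others by Dixon's test, where chance gives about 1 in 20 groups. Cry2 in CA2/3-like nuclei stood at 54.7 CPM in Con-PLX, against 82.9 to 83.8 CPM in the other controls. Rora in DG-like nuclei stood at 886 CPM in Stress-PLX, against 1007 to 1032 CPM in the other stress pools.

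Members whose diet pairs both moved one way under stress and whose genotype pairs both moved the other way are given by the mean log2 difference of the diet pairs and then of the genotype pairs. In CA2/3-like nuclei these were Cry1 (-1.49 and 0.20), Cry2 (0.35 and -0.13) and Rora (-0.18 and 0.20). In CA1-like nuclei they were Cry2 (0.25 and -0.01) and Clock (0.27 and -0.11), and in DG-like nuclei Cry2 (0.24 and -0.14). In INH-like nuclei they were Per2 (0.91 and -0.31), Per3 (0.74 and -0.50), Dbp (0.23 and -0.95), Clock (-0.12 and 0.07) and Nr1d2 (-0.13 and 0.20). The difference itself, tested in the edgeR fit, was called for none of them, with adjusted p from 0.282 to 0.802. Cry1 in CA2/3-like nuclei rested on 5 UMIs in Stress-Veh and 1 in Stress-PLX. Dbp in INH-like nuclei rested on 5 in each PLX5622 pool. Cry2 in CA1-like nuclei moved by only -0.01 and -0.00 in the genotype pairs. The share of all genes with such opposed signs was not counted, so the list shows nothing particular to the members.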

How the results depend on the processing

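Within classes, 1 member was called, and 3 were without a filter on low counts. Without that filter the number of all genes called rose as well. It went from 78 to 432 in CA2/3-like, from 6 to 175 in DG-like and from 1 to 285 in CA1-like nuclei. No member was called without the replicate block, after thinning to 500 UMIs, at Leiden resolution 0.5 or in the largest cluster alone. Leaving out a pair gave 0 to 1. Per3 in CA2/3-like nuclei, the member called in the main fit, was not tested after thinning, so that fit could not call it. In all nuclei 0 members were called by edgeR (4 at an unadjusted p under 0.05), 3 without the filter and 1 by DESeq2. All genes called there went from 60 to 872 without the filter, so more member calls came with more calls in general. The share of all genes called by DESeq2 is not given here. Without the block, Per3 in CA2/3-like nuclei stood at 0.85 (adjusted p = 0.445) and Per1 in all nuclei at 0.68 (adjusted p = 0.132). Of the single-gene values, 465 kept their direction and side of the threshold, 21 lost a call, 13 gained one and 34 changed sign, mostly estimates near 0. The causes were not tested.

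In all nuclei the sign changed for Cry1 (0.11 without the PLX5622 pair), Npas2 (-0.10 in the 4 classes), Nr1d2 (-0.02 without the filter, -0.10 thinned, -0.11 without the nIL-1R1-/- pair), Rora (0.06 and 0.01 without the PLX5622 and IL-1R1+/+ pairs) and Bmal1 (0.00 thinned). In DG-like nuclei it changed for Cry2 (0.01 without the block, 0.08 thinned, 0.08 without the nIL-1R1-/- pair) and Npas2 (-0.04 thinned). In CA1-like nuclei it changed for Cry2 (-0.14 thinned, -0.02 in the largest cluster), Clock (-0.04 at resolution 0.5, -0.09 without the PLX5622 pair and up to 0.09 without another, -0.01 in the largest cluster) and Rora (0.07 without the PLX5622 pair and down to -0.17 without another, 0.04 in the largest cluster). In CA2/3-like nuclei it changed for Cry1 (0.08 without the vehicle pair, down to -0.39 without another), Cry2 (-0.06 without the PLX5622 pair), Npas2 (0.01 thinned) and Nr1d2 (-0.00 without the filter, -0.01 and -0.07 without the PLX5622 and nIL-1R1-/- pairs, up to 0.09 without another). Rora there, at 0.00, gave -0.00 with RLE or DESeq2, -0.02 without the filter, -0.07 thinned, -0.04 at resolution 0.5, without doublets and in the largest cluster, and -0.08 and -0.06 without the IL-1R1+/+ and nIL-1R1-/- pairs.

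The number of genes called in all nuclei was 60 and ran from 0 without the block to 872 without the filter. In CA2/3-like nuclei 78 were called, from 0 to 432 over the alternatives. Depth limits Cry1, Dbp and Nr1d1, the members with the lowest levels in all nuclei. Every member but Clock and Rora had 0 UMIs in some classes and pools. The fits of the largest cluster, of the 4 classes and of the difference between experiments were chosen after seeing the data.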
